A study of Mus musculus with 11 samples.

Results

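Serpinb1a, Stk32a, Crtac1, Sp6, Rasef, Avpr1a, Pkib and Sez6l2 are 8 of the 55401 genes counted in DiI-labelled trigeminal ganglion neurons of the mouse. They were chosen by their measured values, because their counts were higher in libraries of tumour-bearing mice. Their difference between tumour and sham libraries is therefore given as a description, without a test. What follows sets out how evenly the 8 genes behaved from library to library and how they stood against genes that mark neurons in general.

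Tumours were grown from MOC1, a line of murine oral squamous cell carcinoma, and the controls were sham mice, and the design asks how gene expression differs between the sensory neurons of the 2 groups. DiI, a dye carried from nerve endings back to the cell body, marked the neurons that were sorted from the trigeminal ganglia of both sides, in the sham mice as well, and poly(A) RNA was sequenced in bulk. There were 3 libraries of MOC1 females, 3 of MOC1 males, 3 of sham females and 2 of sham males, which are numbered 1 and 3. Strain, genotype, age, the site of the tumour and of the dye, and the time after tumour injection are not given in the sources used here. MOC1 is a single cell line, and no label ties a library to an animal of its own. Values below are CPM, a gene's counts scaled to a common total of counts in genes, after TMM scaling, a correction for differences in library composition.

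The 8 proteins belong to different systems. Avpr1a is a vasopressin receptor that acts through Gq proteins and phospholipase C, and Pkib is an inhibitor peptide that holds protein kinase A inactive. Stk32a is a serine/threonine kinase of which little is known, Rasef (also Rab45) is a large Rab GTPase with EF hands, and Sp6 (epiprofin) is a zinc finger transcription factor known from teeth and skin. Crtac1 (also LOTUS) antagonises the Nogo receptor, through which myelin proteins restrain axon growth. Sez6l2 is a neuronal membrane protein with Sushi and CUB domains, and Serpinb1a is an intracellular serpin that inhibits neutrophil serine proteases.

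Across the 11 libraries, counts in genes ran from 10757426 to 16703797 and genes detected from 14180 to 19078. MOC1 libraries differed from sham libraries in glial and neuronal markers, and the members' part in that was not tested. The 16 satellite glia markers, genes of the cells that wrap sensory neuron bodies, summed to between 3514 and 6334 CPM over MOC1 and between 9627 and 11699 CPM over sham libraries, without TMM. Of these, 15 were lower at an adjusted p under 0.05, against 4.28% of all 16817 genes tested. The 20 pan-neuronal genes summed to between 14992 and 16038 CPM over MOC1 and between 11684 and 14300 CPM over sham libraries, and 11 were higher and 0 lower. In bulk libraries, fewer cells of a type and less RNA per cell cannot be told apart. Schwann cell markers summed to 1670 to 1795 and 1720 to 2038 CPM, with 1 of 12 higher and 4 lower. Sham female 1 stood apart with 1640 CPM of 12 endothelial and mural markers, where the other libraries held 212 to 446 CPM. Of 10 markers of squamous epithelium and tumour, 0 of 5 tested passed in either direction. Krt5, Krt6a and Krt17 had no count in any library. The 10 together still summed to 395 to 510 CPM over MOC1 and 402 to 456 CPM over sham libraries. Of 14 macrophage and leukocyte markers 0 of 12 tested passed, and Cd3e and Elane had no count. Their sums were 9.20 to 28.9 CPM over MOC1 and 15.9 to 106 CPM over sham libraries, and the 106 CPM came from sham female 1, the other sham libraries holding 15.9 to 29.5 CPM. The 8 fibroblast markers summed to 70.2 to 88.3 CPM over MOC1 and 102 to 240 CPM over sham libraries, with 1 of 7 tested lower. Among sensory neuron classes, 2 of 7 peptidergic and 1 of 9 nonpeptidergic markers were higher, 0 of 6 cold and low-threshold C-fibre markers passed, and 1 of 8 myelinated markers was lower. MOC1 female 3 and MOC1 male 2 had the fewest genes detected, 14180 and 15327, and values without these 2 and sham female 1 are given where they matter.

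Promoter sequence was at hand in RefSeq (GRCm38.p6) for 4 of the 8 genes. It is shown for Crtac1 and Pkib, whose levels ran most closely together from library to library, and for Avpr1a, whose levels varied most. Each run is the 250 bases before an annotated start, 5′ to 3′ on the gene's strand, and capitals mark the GC box, GGGCGG, which reads CCGCCC where it lies on the other strand. The windows are chr19:42431789-42432038 (minus strand) for the distal Crtac1 start, chr10:57631731-57631980 (plus strand) for the first Pkib start and chr10:122448249-122448498 (plus strand) for Avpr1a.
Crtac1: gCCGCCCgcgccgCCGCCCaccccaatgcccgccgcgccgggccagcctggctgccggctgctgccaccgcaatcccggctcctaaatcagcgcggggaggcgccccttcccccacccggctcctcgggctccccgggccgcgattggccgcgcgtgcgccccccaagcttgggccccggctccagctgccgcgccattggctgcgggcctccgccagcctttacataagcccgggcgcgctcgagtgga
Pkib: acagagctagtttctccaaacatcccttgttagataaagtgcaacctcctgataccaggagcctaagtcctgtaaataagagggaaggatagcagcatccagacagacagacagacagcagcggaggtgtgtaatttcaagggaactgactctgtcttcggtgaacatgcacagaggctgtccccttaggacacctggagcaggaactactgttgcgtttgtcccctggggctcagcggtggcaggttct
Avpr1a: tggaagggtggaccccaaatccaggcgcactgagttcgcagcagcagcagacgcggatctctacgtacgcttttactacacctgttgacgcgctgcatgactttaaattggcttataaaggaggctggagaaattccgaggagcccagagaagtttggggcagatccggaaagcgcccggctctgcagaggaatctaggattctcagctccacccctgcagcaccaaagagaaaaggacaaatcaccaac
The Crtac1 window was 77.6% G and C with 33 CpG pairs, and its GC boxes lay 249 to 244 and 237 to 232 bases before the start. The window of the other annotated Crtac1 start, not shown (chr19:42431495-42431744, 74.4% G and C, 25 CpG pairs), held no GC box. The Pkib window held 51.2% G and C with 4 CpG pairs, and the Avpr1a window 53.6% with 12. The median over all 32851 promoter windows was 52.4% and 6 CpG pairs, so the Crtac1 window was far richer in CpG than the Pkib window. A GC box, the letters that Sp factors are known to bind, was found in 32.74% of all windows. The cAMP response element TGACGTCA was in 1.55% of windows, the AP-1 site TGANTCA in 6.75% and the E-box CACGTG in 6.02%. On either strand these 3 motifs matched in none of the Crtac1, Pkib and Avpr1a windows shown. None of the motifs contains another.

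Avpr1a, the receptor of the set, was the most variable member. The gene lies on chromosome 10 (122448499 to 122453452, plus strand, GRCm38). Sham libraries held 7.90, 2.28 and 3.78 CPM in females and 7.82 and 3.57 CPM in males. MOC1 libraries ran from 7.42 to 26.7 CPM with a median of 14.5 CPM. It is the 1 member whose groups overlapped: MOC1 female 1, at 7.42 CPM, lay below sham female 1 and sham male 1, and the other 5 MOC1 libraries lay above every sham library. The means were 16.5 ± 7.0 CPM (SD, n = 6) and 5.07 ± 2.61 CPM (SD, n = 5), a log2 change of 1.58 (SE 0.35) or 2.99-fold. These values rest on 38 to 415 counts per library. The change was 1.33 (SE 0.47) in females and 1.90 (SE 0.55) in males.

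Pkib, the protein kinase A inhibitor, gave one of the more even patterns. Its gene spans 57631981 to 57741112 on the plus strand of chromosome 10. Sham libraries held 14.9, 18.9 and 23.3 CPM in females and 21.2 and 13.9 CPM in males. The MOC1 range was 30.1 to 41.1 CPM, median 39.2 CPM, all above the highest sham library. Within MOC1 males the 3 libraries lay between 39.97 and 41.08 CPM. The means were 37.7 ± 4.22 CPM (SD, n = 6) and 18.4 ± 4.02 CPM (SD, n = 5), a log2 change of 1.02 (SE 0.17), 0.87 (SE 0.23) in females and 1.21 (SE 0.26) in males.

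Rasef, the Rab GTPase, lies on chromosome 4 (73714579 to 73790994, minus strand). Sham libraries held 13.4, 8.06 and 6.91 CPM in females and 11.4 and 13.1 CPM in males. In MOC1 the values ran from 16.0 to 37.5 CPM with a median of 27.7 CPM. The groups did not overlap, and the lowest MOC1 library was again MOC1 female 1. MOC1 males, at 34.3 ± 3.81 CPM (SD, n = 3), lay wholly above MOC1 females, at 20.9 ± 4.64 CPM (SD, n = 3). The overall log2 change was 1.30 (SE 0.21) or 2.46-fold, with 1.14 (SE 0.29) in females and 1.49 (SE 0.33) in males.

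Stk32a, the kinase, lies on chromosome 18 (43207583 to 43318682, plus strand). Sham libraries held 18.5, 14.5 and 20.3 CPM in females and 19.5 and 16.9 CPM in males, the narrowest sham spread of the 8 genes but for Sez6l2 when taken relative to the mean (12.8% against 12.0%). MOC1 libraries ran from 31.6 to 57.3 CPM with a median of 39.5 CPM. Every MOC1 library lay above every sham library, and their spread was 24.8% of the mean. The log2 change was 1.22 (SE 0.18) or 2.33-fold, with 1.14 (SE 0.24) in females and 1.32 (SE 0.28) in males.

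Sp6, the transcription factor, had the lowest level and the largest fold change of the 8 genes. It lies on chromosome 11 (97013394 to 97024734, plus strand). Sham libraries held 1.96, 1.32 and 1.18 CPM in females and 3.69 and 2.67 CPM in males. The 6 MOC1 values ran from 5.75 to 12.7 CPM with a median of 10.3 CPM, above all sham libraries. Counts per library were 20 to 187, so the single values are coarse. The means were 9.69 ± 2.89 CPM (SD, n = 6) and 2.16 ± 1.04 CPM (SD, n = 5), a log2 change of 2.17 (SE 0.38) or 4.49-fold. In females the log2 change was 2.49 (SE 0.52) and in males 1.79 (SE 0.59).

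Crtac1, the Nogo receptor antagonist, lies on chromosome 19 (42268287 to 42431785, minus strand). Sham libraries held 26.6, 43.3 and 41.0 CPM in females and 36.8 and 29.9 CPM in males. MOC1 libraries ran from 59.0 to 73.3 CPM, median 64.4 CPM, without overlap. The MOC1 libraries were close to each other, with a spread of 7.45% of the mean, against 20.1% in sham libraries. The log2 change was 0.90 (SE 0.13) or 1.86-fold, with 0.87 (SE 0.18) in females and 0.94 (SE 0.21) in males.

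Sez6l2, the neuronal membrane protein, had the highest CPM and the smallest fold change. It lies on chromosome 7 (126950563 to 126970606, plus strand). Sham libraries held 87.5, 105 and 84.8 CPM in females and 110 and 89.2 CPM in males. Under MOC1 they ran from 133 to 156 CPM, median 152 CPM, all above the sham libraries. Their spread was 6.08% of the mean, the narrowest of the 8 genes. The means were 149 ± 9.06 CPM (SD, n = 6) and 95.3 ± 11.4 CPM (SD, n = 5), a log2 change of 0.64 (SE 0.09) or 1.56-fold, with 0.67 (SE 0.12) in females and 0.60 (SE 0.14) in males.

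Serpinb1a, the protease inhibitor, lies on chromosome 13 (32842092 to 32851185, minus strand). Sham libraries held 28.3, 41.2 and 48.0 CPM in females and 44.3 and 37.1 CPM in males. MOC1 libraries ran from 61.8 to 108 CPM with a median of 92.9 CPM. The groups did not overlap, and the MOC1 males held both the lowest and the highest MOC1 value, where MOC1 females lay between 92.4 and 99.5 CPM. The log2 change was 1.14 (SE 0.16) or 2.20-fold, with 1.28 (SE 0.21) in females and 0.96 (SE 0.24) in males.

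**Figure D1:**
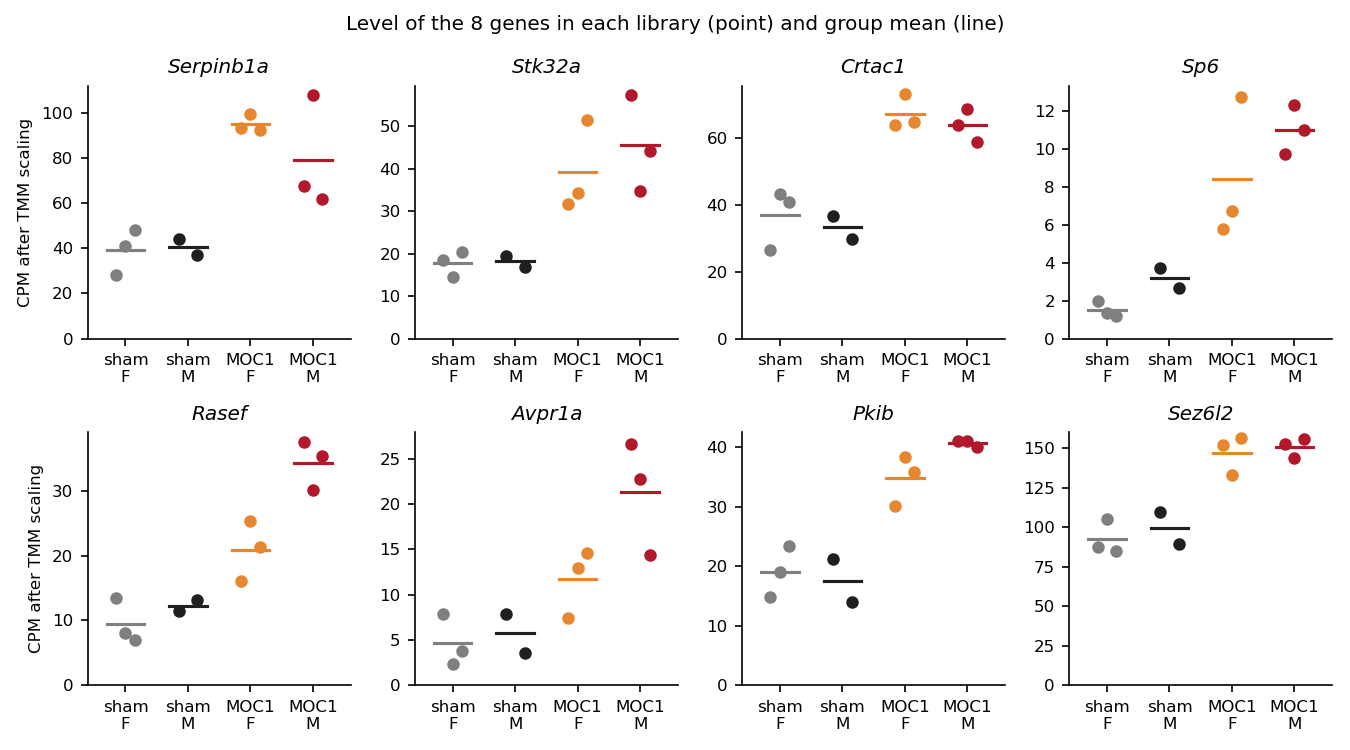
CPM after TMM scaling of the 8 genes (vertical axes, linear, from 0) by condition and sex (F, female; M, male), with 1 point per library and a line at each group mean. Except for Avpr1a, where MOC1 female 1 lies at 7.42 CPM, every MOC1 point lies above every sham point.

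Read by library, 7 of the 8 genes had all 6 MOC1 values above all 5 sham values, where 2.15% of all genes tested did so. Within females 7 genes were apart in this way and within males all 8, and 7 were apart without MOC1 female 3, MOC1 male 2 and sham female 1, the 3 libraries that stand apart. All 8 were called higher by edgeR at an adjusted p under 0.05, as were 2.34% of the genes tested, and since the genes were selected on this contrast nothing is read from either share. All 8 lay above the sham maximum in every MOC1 library but MOC1 female 1, which exceeded it for 7. No sham library exceeded the lowest MOC1 value except for Avpr1a. The highest value among the 11 libraries fell in MOC1 male 1 for 4 genes, in MOC1 female 3 for 2, and in MOC1 female 2 and MOC1 male 2 for 1 each. No single library thus carried the high values of all 8 genes. The lowest MOC1 value fell in MOC1 female 1 for Avpr1a, Rasef, Stk32a, Sp6 and Pkib. That library had the fewest counts in genes, 10757426, and the highest satellite glia sum among MOC1 libraries, 6334 CPM. Whether these go together was not tested.

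Levels between genes were compared per kilobase of annotated exon. In sham libraries the order was Sez6l2 (22.6 ± 2.71 CPM per kb, SD, n = 5), Serpinb1a (17.3 ± 3.29), Crtac1 (13.6 ± 2.72), Stk32a (2.17 ± 0.28), Avpr1a (1.90 ± 0.98), Rasef (1.84 ± 0.51), Pkib (1.56 ± 0.34) and Sp6 (0.56 ± 0.27). The ranges of Sez6l2 and Serpinb1a overlapped, as did those of Serpinb1a and Crtac1, and Stk32a, Avpr1a, Rasef and Pkib did not differ from each other beyond their spread. In MOC1 libraries Serpinb1a stood at 37.8 ± 7.96 CPM per kb (SD, n = 6) and Sez6l2 at 35.4 ± 2.15, within the spread of Serpinb1a. Crtac1 followed at 25.1 ± 1.87, and Avpr1a (6.17 ± 2.62), Stk32a (5.11 ± 1.27) and Rasef (4.80 ± 1.44) overlapped. Pkib, at 3.20 ± 0.36 CPM per kb, and Sp6, at 2.52 ± 0.75, came last, with ranges that overlapped. The Pkib exons add up to 11.8 kb over 11 annotated transcripts, so its level per kb may be too low if a short transcript is used. The median over all genes tested was 3.65 CPM per kb. Sez6l2, Serpinb1a and Crtac1 lay above it in both conditions, Avpr1a, Stk32a and Rasef by their MOC1 mean alone, and Pkib and Sp6 in neither.

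The members were next set against the 20 pan-neuronal genes, which include cytoskeletal, synaptic and RNA-binding proteins common to neurons. The pan-neuronal genes had a median log2 change of 0.28 and the 8 members one of 1.18, where the median over all genes tested was -0.03. The neuronal gene with the largest change was Tubb3, a neuronal tubulin, which averaged 1207 ± 79.0 CPM over MOC1 libraries and 920 ± 113 CPM over the sham ones (log2 change 0.39, SE 0.08, edgeR adjusted p = 0.00308). Each of the 8 members had a larger change than that, Sez6l2 being the nearest. The members were chosen for their rise on this contrast and the pan-neuronal genes were not, so nothing is read from that gap. Scn9a, a sodium channel gene, rose by 0.36 (SE 0.07, edgeR adjusted p = 0.00160). Syt1, the synaptic calcium sensor, rose by 0.33 (SE 0.09, edgeR adjusted p = 0.0272). The calls of Tubb3, Scn9a and Syt1 were lost when libraries were scaled to the list itself. The call of Syt1 was also lost without MOC1 female 2, MOC1 female 3, MOC1 male 1, sham female 2 or sham male 3. The lowest of the 20 were Map2 (-0.04, SE 0.11, edgeR adjusted p = 0.911) and Ina (-0.15, SE 0.13, edgeR adjusted p = 0.624).

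**Figure D2:**
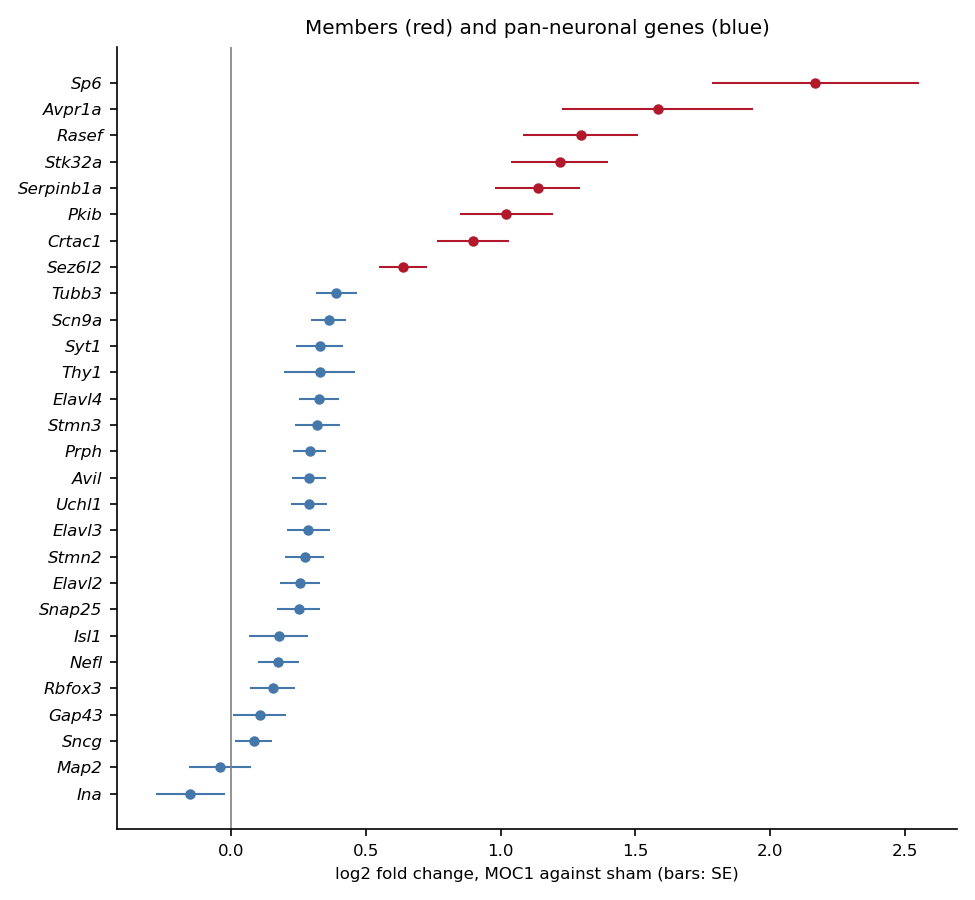
Log2 fold change of MOC1 against sham (horizontal axis, edgeR, bars are SE) for the 8 members in red and the 20 pan-neuronal genes in blue. The members, chosen on this contrast, run from 0.64 to 2.17 and the pan-neuronal genes from -0.15 to 0.39.

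When each gene was expressed per 1000 counts of the summed pan-neuronal list, each still had the higher mean in MOC1. The difference between the means was smaller in all 8 genes. This follows from the scale, since the same sum divides every gene and was higher in every MOC1 library than in any sham library. The ratios below keep the order of the fold changes and add no separate evidence. Sp6 stood at 0.62 ± 0.19 in MOC1 (SD, n = 6) and 0.17 ± 0.07 in sham libraries (SD, n = 5), a ratio of 3.77. Avpr1a stood at 1.06 ± 0.47 and 0.39 ± 0.22, a ratio of 2.71, and Rasef at 1.78 ± 0.56 and 0.82 ± 0.26, a ratio of 2.17. These 3 genes kept the largest ratios. Stk32a had a ratio of 1.98, Serpinb1a of 1.85, Pkib of 1.73 and Crtac1 of 1.55. Sez6l2 had the smallest ratio, 1.31, with 9.58 ± 0.77 in MOC1 and 7.32 ± 0.96 in sham libraries. Groups stayed apart for 5 of the 8 genes, and for 0.113% of all genes tested, a share from which nothing is read since the same contrast chose the members. In Rasef, Avpr1a and Sez6l2 5 of 6 MOC1 libraries lay above all sham libraries. Within males all 8 members were apart on the neuronal scale and within females 5, and 6 were apart without the 3 libraries.

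**Figure D3:**
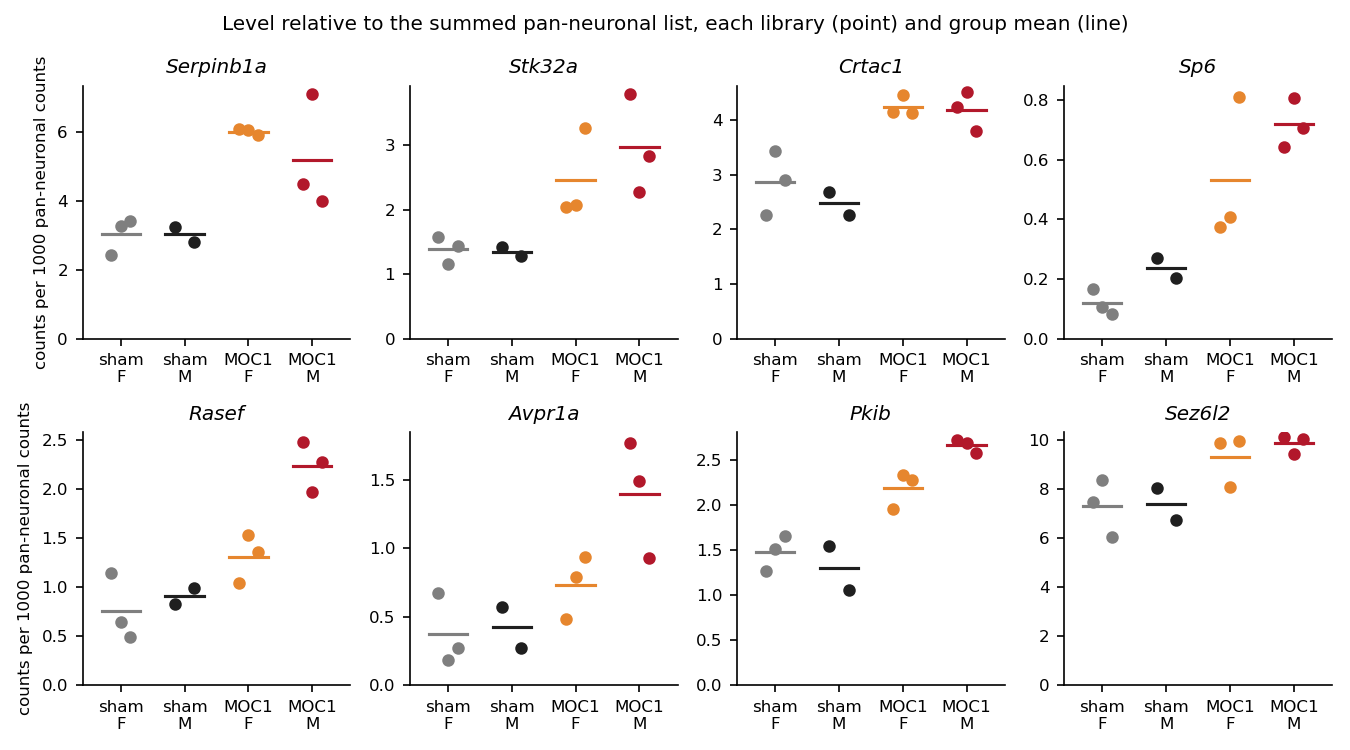
Counts of each of the 8 genes per 1000 counts of the 20 pan-neuronal genes together (vertical axes, linear, from 0) by condition and sex, with 1 point per library and a line at each group mean. Sez6l2 has the closest groups, with a MOC1 to sham ratio of 1.31, and Sp6 the most distant, with a ratio of 3.77.

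The change with tumour was then compared between the sexes, a contrast that did not choose the genes. For none of the 8 genes did the interaction of sex and tumour pass, in edgeR with adjustment over all 16817 genes, where 0 genes (0%) were called, 708 had an unadjusted p under 0.05 and DESeq2 called 0. Of the 8, 0 had an unadjusted p under 0.05. Sp6 had the largest interaction, with a log2 change larger in females by 0.71 (95% interval -0.86 to 2.27, edgeR adjusted p = 0.99991). Avpr1a differed by -0.57 (-2.03 to 0.89), that is towards males, and Serpinb1a by 0.32 (-0.34 to 0.98). The intervals of Sp6 and Avpr1a leave room for sex differences larger than the overall change. They were narrowest for Sez6l2, at 0.07 (-0.32 to 0.46), and Crtac1, at -0.07 (-0.65 to 0.50). Rasef (-0.34, interval -1.24 to 0.55), Pkib (-0.35, interval -1.06 to 0.37) and Stk32a (-0.18, interval -0.95 to 0.58) also had the smaller estimate in females. The interval of Pkib reaches beyond its overall change of 1.02, and those of Rasef and Serpinb1a come close to theirs.

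Female against male libraries, with condition in the fit, gave 0 calls among the 8 genes and 7 among all genes (0.0416%), with 722 at an unadjusted p under 0.05. DESeq2 called 21 genes, and none of the 8. Rasef had the smallest unadjusted p of the 8. Its plain mean was 15.2 CPM in female and 25.5 CPM in male libraries, which hold unequal shares of MOC1 and sham. With condition in the fit, the female minus male log2 difference was -0.57 (SE 0.21, 95% interval -1.0 to -0.13, unadjusted p = 0.0138 and adjusted p = 0.99995, edgeR). Without the 3 libraries that stand apart, the adjusted p of Rasef was 0.187. Sp6 (-0.69, SE 0.36) and Avpr1a (-0.62, SE 0.34) had lower means in females too, with intervals that include 0. The other 5 genes differed by -0.14 to 0.12.

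How the members varied together within groups was described by correlating log2 CPM over the 11 libraries after the 4 group means were taken out. These points share library depth and the mix of cells in each library. Taking out 4 means leaves fewer than 11 free values, and the 2 sham male values mirror each other in every gene. The 28 pairs had a median r of 0.11 and ran from -0.69 to 0.79. Crtac1 went with Pkib (r = 0.79, and 0.87 without the 2 libraries farthest out) and with Serpinb1a (0.79 and 0.79), and Serpinb1a went with Pkib (0.61 and 0.65). Sp6 and Avpr1a formed a looser pair (0.63 and 0.47), as did Rasef and Avpr1a (0.56 and 0.37). Without 2 libraries, Avpr1a had a higher r with Pkib (0.14 and 0.67) and with Crtac1 (-0.32 and 0.61). Which genes Avpr1a went with thus depended on the libraries kept. Rasef ran against Serpinb1a (-0.69 and -0.54), while its r with Crtac1 went from -0.64 to -0.25 without 2 libraries and rests on them.

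The same residuals were set against the summed lists. Pkib (r = 0.79, and 0.71 over 9 libraries), Crtac1 (0.71 and 0.70) and Serpinb1a (0.67 and 0.68) went with the pan-neuronal sum within groups. Rasef had r = -0.66 with that sum but 0.18 over 9 libraries. Stk32a ran against the satellite glia sum (-0.76 and -0.71), and so did Rasef (-0.52 and -0.69). Sp6 had r = -0.66 with it, which was -0.31 over 9 libraries, and Avpr1a -0.45 and -0.38. Sez6l2 followed neither sum, with r = -0.15 and 0.04. The r values of the 8 genes thus differed in sign and size within groups. Whether they differ beyond the noise of so few libraries was not tested.

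**Figure D4:**
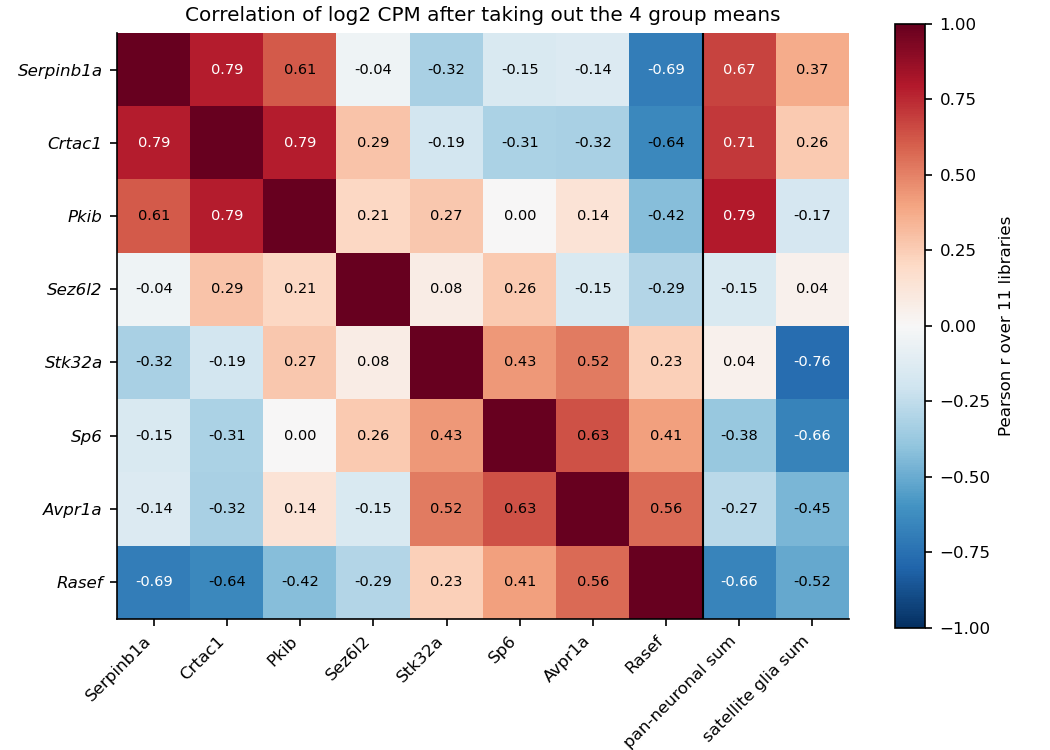
Pearson r of log2 CPM over 11 libraries, after taking out the means of the 4 groups of condition and sex, between the 8 genes and with the summed pan-neuronal and satellite glia lists (colour scale from -1 to 1). Serpinb1a, Crtac1 and Pkib form a block of r from 0.61 to 0.79, and Stk32a has the lowest r with the glial sum, -0.76.

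On the same residuals each gene was compared with 9487 genes of at least 10 CPM (9488 for Sp6), and the 2 most alike are named. With 11 libraries and so many genes searched, a high r was reached for each of the 8. Nearest to Avpr1a were Foxp1 (r = 0.92) and Msrb3 (0.92). For Pkib they were Frg1 (0.96) and Siah2 (0.95), and for Rasef Tnks (0.98) and Smad4 (0.97). Stk32a was most like Tmem68 (0.99) and Parp1 (0.96), and Sp6 most like Anp32b (0.99) and Nipsnap1 (0.98). Crtac1 was followed by Ift81 (0.94) and Zbtb39 (0.94), Sez6l2 by Kcnmb4 (0.96) and Atxn2 (0.94), and Serpinb1a by Ola1 (0.95) and Gtpbp3 (0.94). Between MOC1 and sham these 16 genes had log2 changes from -0.45 (Ift81) to 0.38 (Nipsnap1). None had a change as large as that of the member it followed. The members were chosen on that contrast and these 16 genes were not, so nothing is read from the gap.

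For each member the genes of its family or pathway were taken from lists of 70 genes in all, of which 52 had enough counts to be tested. Of the 52, 4 were higher and 3 lower in MOC1 by edgeR at an adjusted p under 0.05, and their median log2 change was 0.14. Each of the 4 risers changed by less than the pan-neuronal Tubb3. Over all genes tested, 2.34% were called higher and 4.28% lower. DESeq2 called 6 of the related genes higher and 4 lower. In edgeR the lists of Serpinb1a, Stk32a, Rasef and Sez6l2 held 0 calls in either direction.

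Around Avpr1a, 1 of 10 tested genes rose and 2 fell. The Gq subunit gene Gnaq rose from 606 ± 50.7 to 772 ± 89.3 CPM (log2 change 0.34, SE 0.08, edgeR adjusted p = 0.0123). Itpr3, a receptor for inositol trisphosphate downstream of Gq, fell by 1.01 on the log2 scale, from 165 ± 26.2 to 81.0 ± 22.3 CPM (SE 0.16, edgeR adjusted p = 0.000361). Plcb4, a phospholipase C, fell by 0.52, from 71.9 ± 8.27 to 50.7 ± 9.05 CPM (SE 0.13, edgeR adjusted p = 0.0188), and was not called without MOC1 female 2, sham female 2 or sham male 3 (adjusted p up to 0.0688). The phospholipase C gene Plcb3 stood at -0.02 (edgeR adjusted p = 0.957) and Lnpep, the aminopeptidase that cleaves vasopressin and oxytocin, at 0.19 (0.397). The related receptor gene Avpr1b and both peptide genes, Avp and Oxt, had no count in any library. The oxytocin receptor gene Oxtr, named after its values were seen, averaged 0.92 ± 0.28 CPM over sham and 1.99 ± 1.52 CPM over MOC1 libraries. It did not pass (log2 change 1.15, SE 1.01, edgeR adjusted p = 0.635). With libraries scaled to the pan-neuronal list, Gnaq was not called. With scaling to the satellite glia list, Gnaq, Itpr3 and Plcb4 all had estimates above 0. Gnaq and Plcb4 were then called higher (edgeR adjusted p = 4.03e-07 and 0.00418), so the call of Plcb4 turned, and Itpr3 was not called (0.749). In that setting 10127 genes were called higher.

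Around Pkib, 2 of 11 genes rose, both regulatory subunits of protein kinase A. Prkar2a rose from 234 ± 16.0 to 299 ± 29.4 CPM (log2 change 0.35, SE 0.08, edgeR adjusted p = 0.0111). Prkar1b rose from 585 ± 22.2 to 683 ± 38.3 CPM (0.22, SE 0.06, edgeR adjusted p = 0.0355). The call of Prkar1b held without MOC1 male 1 or MOC1 male 2 and was lost without any other single library, MOC1 female 1, 2 or 3, MOC1 male 3, sham female 1, 2 or 3, or sham male 1 or 3, with adjusted p values up to 0.101. Prkar1a stood at -0.04 (edgeR adjusted p = 0.860) and Prkar2b at 0.18 (0.221).

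Around Crtac1, 1 of 10 genes rose. Rtn4, which encodes Nogo, went from 1472 ± 66.7 to 1740 ± 53.1 CPM (log2 change 0.24, SE 0.05, edgeR adjusted p = 0.0104). Ngfr, a co-receptor of the Nogo receptor, stood at 0.31 (edgeR adjusted p = 0.0849) and the Nogo receptor relative Rtn4rl1 at 0.30 (0.112). Ngfr passed with DESeq2, with no filter on low counts and without sham female 2. Tnfrsf19, also a co-receptor, is named after its values were seen and had the lowest estimate of the list, -2.03 (SE 0.69, edgeR adjusted p = 0.0941), with 10.9 ± 10.5 CPM (SD, n = 5) over sham libraries, from 3.42 to 29.0, and 2.64 ± 1.71 CPM (SD, n = 6) over MOC1 libraries. It passed as lower with DESeq2, with no filter and with pan-neuronal scaling, and stood at -1.30 without sham female 1 and at -0.90 without the 3 libraries that stand apart. The list's median log2 change, 0.29, was close to that of the pan-neuronal genes.

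Among the relatives of Sp6, 4 of 8 were tested and 1 fell. Sp1, the widely expressed founder of the family, fell by 0.91 on the log2 scale, from 44.4 ± 6.39 to 23.6 ± 3.70 CPM (SE 0.15, edgeR adjusted p = 0.000877). Sp3 stood at -0.13 (edgeR adjusted p = 0.745) and Sp4 at -0.40 (0.188), so all named relatives had estimates below 0 where Sp6 was higher. Sp7, Sp8 and Sp9 had no count in any library.

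In the 4 lists without a call by edgeR the highest expressed relatives had small estimates. Serpinb6a, a relative of Serpinb1a, stood at 0.20 (edgeR adjusted p = 0.149, passing without sham female 3), and Serpinb8 at 0.08 (0.875). Serpinb1b, the near copy of Serpinb1a, is named although it falls outside the rule for names. It averaged 5.60 ± 2.57 CPM over sham and 8.41 ± 3.41 CPM over MOC1 libraries (0.55, edgeR adjusted p = 0.538), and reads shared between the copies are not assigned in such counts. The neutrophil protease genes Elane and Ctsg, whose products Serpinb1a is known to inhibit, had no count in any library. Prtn3, also a neutrophil protease gene of that list, had at most 8 counts in a library and was not tested. Stk32c, the tested relative of Stk32a, stood at 0.27 (edgeR adjusted p = 0.526) and Cracr2a, the tested relative of Rasef, at 0.33 (0.721). In the Sez6l2 list the adducins Add1 (0.10, edgeR adjusted p = 0.437) and Add2 (0.19, 0.205) were the most highly expressed. Its paralogs, named after their values were seen, were Sez6 at 0.36 (SE 0.15, edgeR adjusted p = 0.204) and Sez6l at 1.34 (SE 0.46, edgeR adjusted p = 0.0994), the latter from 2.98 ± 1.95 to 7.69 ± 2.94 CPM. Sez6l passed as higher with DESeq2, and Sez6 passed as higher without the 3 libraries that stand apart (log2 change 0.49).

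**Figure D5:**
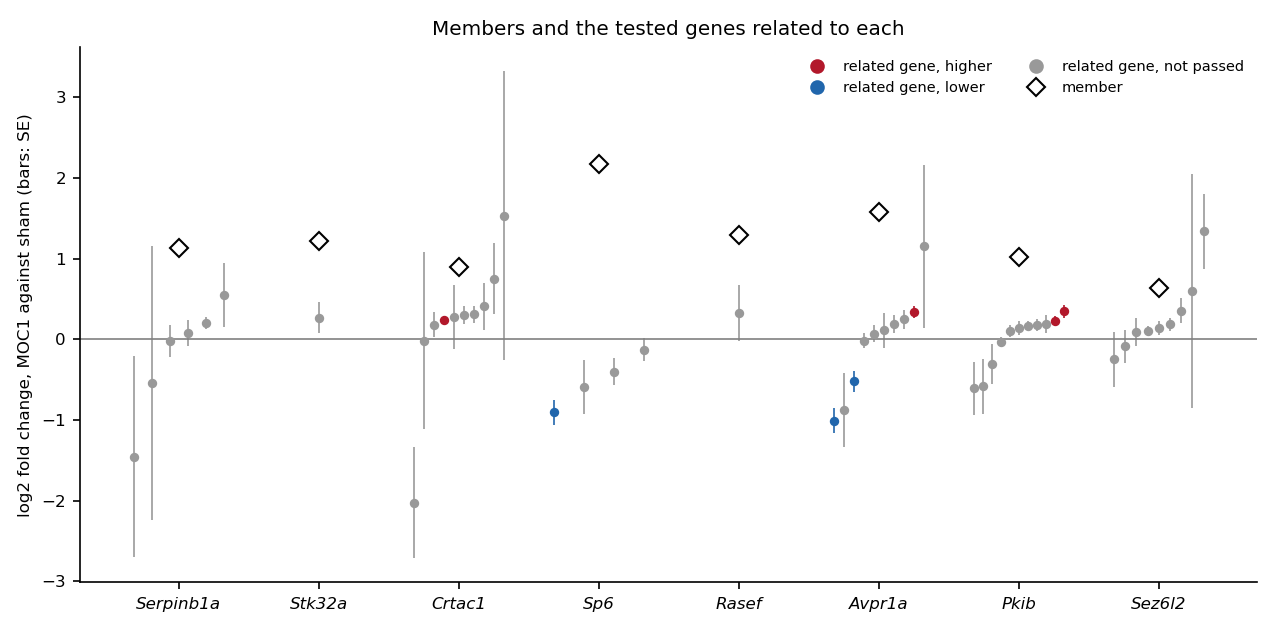
Log2 fold change of MOC1 against sham (vertical axis, edgeR, bars are SE) for each of the 8 members (diamonds) and the 52 tested genes of its family or pathway (points, coloured where the adjusted p was under 0.05). The 4 genes called higher lie between 0.22 and 0.35, and the 3 called lower between -1.01 and -0.52.

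The related calls depended on how libraries were scaled, which shifts the log2 changes of all genes together. With libraries scaled to the pan-neuronal list, which moved the median of all genes to -0.28, Gnaq stood at 0.08, Prkar2a at 0.09, Rtn4 at -0.02 and Prkar1b at -0.03, and none of these 4 was called. With scaling to the satellite glia list, which moved that median to 1.10, Sp1 stood at 0.20, Itpr3 at 0.07 and Plcb4 at 0.58. Of these only Plcb4 was called, and as higher. The 8 members had log2 changes from 0.38 (Sez6l2) to 1.91 (Sp6) with pan-neuronal scaling and from 1.78 (Sez6l2) to 3.34 (Sp6) with satellite glia scaling. With the log2 share of the satellite glia list as a covariate, which does not overlap between MOC1 and sham, the estimates were 1.58 (SE 0.42) for Serpinb1a, 1.18 (SE 0.38) for Crtac1, 0.88 (SE 0.49) for Pkib and 0.65 (SE 0.25) for Sez6l2. They were 0.86 (SE 0.93) for Sp6, 0.54 (SE 0.59) for Rasef, 0.34 (SE 0.95) for Avpr1a and 0.20 (SE 0.44) for Stk32a, each smaller than its SE. Whether the members differ from each other in this was not tested. The SE of every member was larger than without the covariate.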

How the data were processed

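RNA of 11 libraries of sorted mouse trigeminal neurons was measured. The deposited values are the authors' raw read counts per gene, unnormalized and strand-specific, per the file headers. Trimmomatic 0.35, STAR 2.7.1a and RSEM were named for GRCm38 (mm10), per the submitters' processing notes. Which annotation release was used is not stated in the labels or headers. Totals that name no gene held 18.7% to 21.5% of counts and were left out.

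The 8 genes, the gene lists and the 3 libraries left out together were chosen with earlier results of these data known. In R 4.3.3 with edgeR 4.0.16, filterByExpr left 16817 genes, TMM scaled the libraries, and a quasi-likelihood F test used condition and sex, or the 4 groups for the interaction and the changes within each sex. Adjustment was by Benjamini-Hochberg over all genes with a threshold of 0.05. SE is the log2 change over the square root of F. Log2 CPM used a prior count of 2. The genes named are the members, the called genes of each related list with the 2 others of highest CPM, the 3 highest and 2 lowest pan-neuronal genes, and the 2 most alike genes per member without unnamed models.

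Gene identifiers matched the supplied annotation for 55141 of 55401 genes, and exon lengths come from it. Libraries of a group differed beyond sampling noise (chi-square per degree of freedom 13.5 to 40.8). Where libraries are not separate animals, p-values measure only the spread between these libraries, which may be technical. Alternatives were DESeq2 1.42.0, its size factors, other filters and scalings, a replicate block, a glial covariate, no sex term, and libraries left out.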

Additional observations from a re-analysis of the deposited data

How the results depend on the processing

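Main counts were 394 genes higher and 719 lower, 4 related genes higher and 3 lower, 0 genes in the interaction, 7 between the sexes, and a members' median log2 change of 1.18. DESeq2 gave 648 genes higher and 21 between the sexes. Pan-neuronal scaling gave 30 higher, 1956 lower, 0 and 6 related genes and a members' median of 0.93. Satellite glia scaling gave 10127 higher, 47 lower, 40 and 0 related genes, 2 in the interaction and a members' median of 2.32. The glial covariate gave 0 higher, 0 lower, 0 and 0 related genes, 2 in the interaction and a members' median of 0.76. With no filter on low counts there were 53 in the interaction and 73 between the sexes, and without the 3 libraries 5 and 29. The cause of these shifts was not tested.

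Leaving out each library in turn gave 250 to 427 genes higher, with 250 without MOC1 female 2 and 258 without sham male 3, and 559 to 740 lower. It gave 3 to 4 and 2 to 3 related genes, 0 to 2 in the interaction, 6 to 9 between the sexes and a members' median of 1.12 to 1.22. The 2 in the interaction came without MOC1 female 1 or sham female 1. Members called in the interaction or between the sexes numbered 0 in every setting run. Each member kept a log2 change above 0 in every setting run, with leave-one-out values from 0.60 to 0.70 for Sez6l2 and from 1.92 to 2.33 for Sp6 as lowest and highest genes. Avpr1a had the widest range, from 1.37 without sham male 3 to 1.93 without sham female 1. Without the 3 libraries the members' median was 1.08. Rasef (1.53) and Avpr1a (1.81) then stood above their main values and the other members below theirs, Serpinb1a at 0.90.

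Signs turned for genes that are no members, and the cause was not tested. Pan-neuronal scaling gave Rtn4 -0.019 and Prkar1b -0.035. Satellite glia scaling gave Sp1 0.20, Sp3 0.96, Sp4 0.75, Plcb4 0.58, Itpr3 0.070, Plcb3 1.13, Prkar1a 1.08, Map2 1.08 and Ina 0.96. The glial covariate gave Plcb4 0.25, Itpr3 0.16 and Syt1 -0.17.

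Same-numbered libraries did not deviate together (r -0.04 to 0.05 over 15 pairs). This r would show a strong shared deviation only, so it cannot tell whether the numbers pair the samples, and no label states it. With the replicate block 3 related genes were higher and 3 lower, 0 genes were called in the interaction and 7 between the sexes, and Prkar1b was not called (adjusted p = 0.0661).

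Sp6 and Avpr1a rest on as few as 20 and 38 counts in a library, so their single values are the least precise. With 2 sham male libraries, differences between the sexes are weakly bounded.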
